A study of Oryza sativa with 25 samples.

Results

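Rice callus that had spent 6 days on regeneration medium was compared with callus that had spent 4 days on it. The 6 arrays, 3 for each time, were taken by their titles from the 25 Affymetrix Rice Genome Arrays of an expression atlas of vegetative rice tissue, in which the 8 groups also hold growing callus, callus at 2 and 8 days, root, shoot and young leaf. Per the labels' protocols, callus was started from seeds and kept for 3 weeks on MS medium at 30 °C before it was moved, and 500 ng of total RNA was labelled for each array. The labels call the 3 arrays of a time biological replicates. All 6 arrays therefore share the tissue, the first culture and the regeneration medium, and differ in 2 further days on it. Time on the medium and culture age change together and cannot be told apart, and no array of callus kept off the medium for the same days was used here.

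Callus is a mass of dividing, mostly undifferentiated plant cells. On regeneration medium, which usually holds more cytokinin relative to auxin, parts of it green as plastids turn into chloroplasts, form shoot meristems and later give lateral organs. The family of KNOX homeobox factors marks shoot meristems, YABBY factors mark lateral organs, GLK factors switch on chloroplast genes, and plasma membrane water channels and expansins serve cells that expand. Callus holds several cell types and the labels name none, so a lower value can reflect fewer cells of a type or less RNA per cell, which cannot be told apart.

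Levels are the deposited linear intensities, in which the 75th percentile of each array is 1. A level is comparable between arrays for 1 probe set but not between probe sets. The probe sets of RCABP69, ADI1, ALDP, OsrbcS, OsYUCCA1, PCF8, OsHox8, OsHox15 and OsC3H33 end in _s_at or _x_at and can detect related transcripts. Log2 changes are 6 days minus 4 days, from a limma fit across all 25 arrays, and a call needed both an adjusted p (Benjamini-Hochberg) below 0.05 and a change of at least 2-fold. Across the 37212 probe sets tested, 6 day replicates correlated with each other at 0.969 to 0.981 and 4 day replicates at 0.979 to 0.985. The 6 day replicate 2 array stood apart: its correlations with the 4 day arrays, 0.945 to 0.959, lay below those of the other two 6 day arrays, 0.967 to 0.979. The 4 day replicate 2 array was labelled with an excess of poly(A) control RNA, per its label, and its 12 poly(A) control probe sets had a median of 236, against 0.181 to 0.581 in the other 5 arrays. Among those 5, 4 day replicate 1 (0.181) and 6 day replicate 2 (0.207) lay apart from the rest, at 0.510 to 0.581.

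Most of what passed the test was higher at 6 days than at 4 days. At 6 days 578 probe sets (1.55% of those tested) were called higher and 15 (0.0403%) lower, in all 593 (1.59%), and 97.5% of the calls were rises. The median change over all probe sets tested was -0.05 on the log2 scale, and 41.8% of them were above 0. The excess of rises was smaller without a fold threshold, with 818 higher (2.20%) and 100 lower (0.269%) by adjusted p alone. The deposited values of the 6 and 4 day arrays did not overlap for 549 of the 578 and for all 15 (background 7.78% of probe sets with every 6 day array above and 13.3% with every 6 day array below). The 578 had log2 changes of 1.001 to 5.27 with a median of 1.46, and 109 of them were at least 4-fold higher. Of the 578, 174 (30.1%) lay above the array median in none of the 4 day arrays, so the size of their change depends on the pseudocount. Counted by gene, 422 genes (2.51% of 16836) were called higher and 11 (0.0653%) lower.

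**Figure D1:**
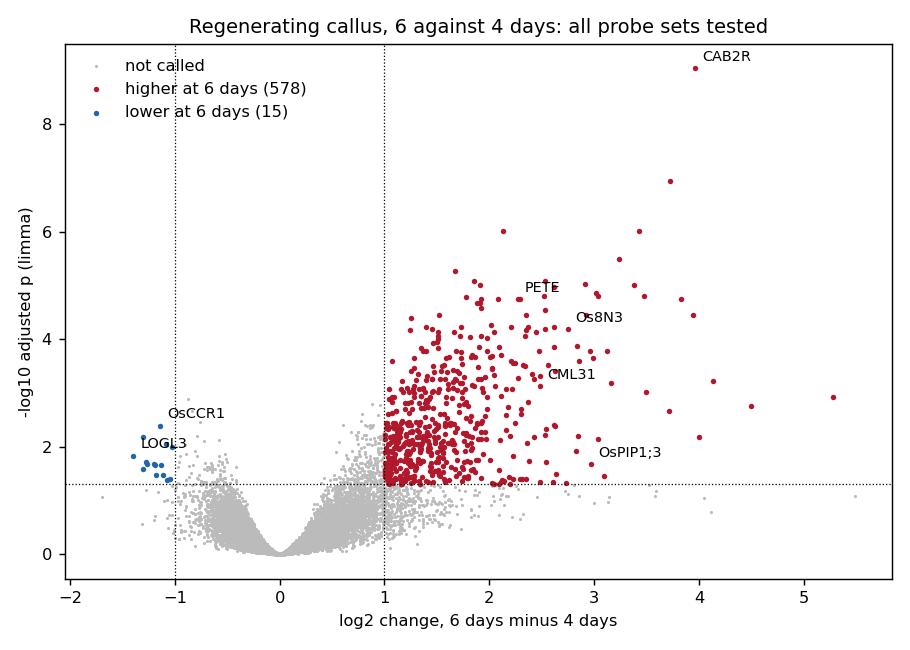
Each point is 1 of 37212 probe sets, with the log2 change, 6 days minus 4 days, on the horizontal axis and -log10 of limma's adjusted p on the vertical axis. Dotted lines mark the 2-fold and 0.05 thresholds. The 578 probe sets called higher spread to the right up to a log2 change of 5.27, and the 15 called lower reach down to -1.40.

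How many probe sets passed depended on single arrays. Without 6 day replicate 2 the count was 258 higher and 5 lower, 258 of these 263 being among the calls made with all arrays, and without 4 day replicate 1 it was 338 higher and 9 lower. Without 6 day replicate 3 it was 929 higher and 15 lower. The 6 day replicate 2 array was the highest of the 3 for 449 of the 578 probe sets (77.7%), against 32.6% over all probe sets tested, and 6 day replicate 3 was the lowest for 287 (49.7%). Rises made up 96.6% to 98.4% of the calls in each of the 6 fits that left out an array of these times.

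**Figure D2:**
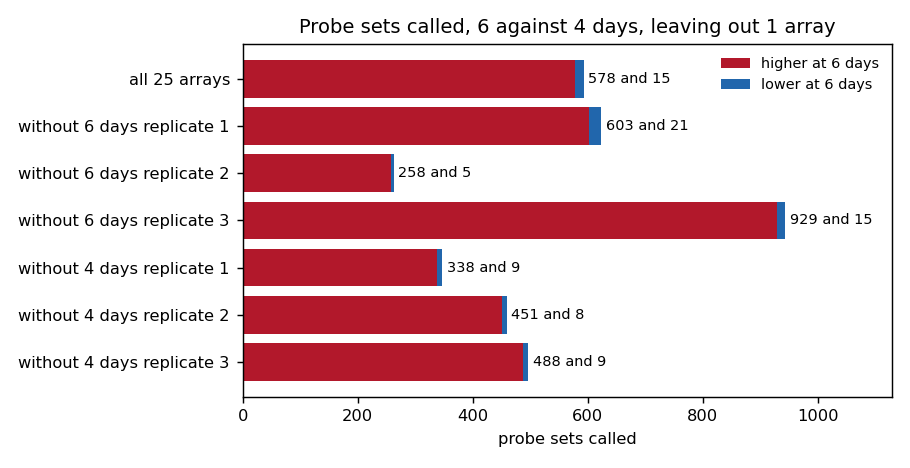
Bars show the number of probe sets called, rises and falls stacked, with all 25 arrays and with 1 array of either time left out. The count of rises and falls is printed at the bar end and is lowest, 258 and 5, without 6 day replicate 2.

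Among genes of the photosynthetic light reactions, 4 of 6 photosystem genes and 2 of 6 electron carriers were called higher. CAB2R, a light-harvesting chlorophyll a/b-binding protein, had levels of 2.55, 3.80 and 1.51 in the 6 day arrays, against 0.148, 0.157 and 0.0945 in the 4 day arrays. Every 6 day array lay far above every 4 day array, and the log2 change of 3.96 (SE 0.23, adjusted p = 9.2e-10) was 3.28 with the larger pseudocount. Its 4 day values lay under the medians of their arrays (0.256, 0.285 and 0.224), so that the size of the change depends on the pseudocount. The same holds for OsMT-I-2b, OsPIP1;3, OsPIP2;2, Os8N3, GRXC15, OsDREB1B.1, ADI1, OsCIN2, RCABP69, GOS5, OsGLK1, CBF3, OsMADS58, OsHox15, PRX74, LOX1.1, Os8bglu27 and GRXC10, all of whose 4 day arrays lay under those medians. Plastocyanin, the copper protein that carries electrons to photosystem I, is encoded by PETE and stood at 3.69, 7.72 and 4.59 at 6 days and at 0.786, 1.01 and 1.57 at 4 days. The groups did not overlap, with 6 day replicate 2 the highest (log2 2.27, SE 0.26, adjusted p = 1.8e-05). The ferredoxin gene ADI1 stood at 0.638, 1.80 and 0.710 at 6 days and at 0.181, 0.248 and 0.170 at 4 days (log2 2.04, SE 0.26, adjusted p = 7.2e-05). Its 6 day arrays lay above all its 4 day arrays, and 3 of its 4 tested probe sets were called.

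Of 6 photosystem and light-harvesting genes 4 were called higher, against 3.76% of the 2341 named genes tested, and the median of the list was 1.11, against -0.02 over all genes tested. Besides CAB2R these were RCABP69 (log2 1.71), LHCP (1.11), both light-harvesting proteins, and GOS5, subunit H of photosystem I (1.11). Of 6 electron carriers 2 rose, PETE and ADI1. Without 6 day replicate 2 the count for the photosystem list was 2, and LHCP also lost its call without 4 day replicate 1.

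Carbon fixation and plastid control genes moved less evenly. The Rubisco small subunit gene OsrbcS stood at 0.788, 1.56 and 1.26 at 6 days and at 0.381, 0.445 and 0.375 at 4 days (log2 1.41, SE 0.22, adjusted p = 4.8e-04). ALDP, the plastid fructose-bisphosphate aldolase, stood at 1.08, 1.603 and 1.12 at 6 days and at 0.278, 0.407 and 0.351 at 4 days (log2 1.73, SE 0.22, adjusted p = 5.8e-05). For both genes all 6 day arrays were higher, although 1 of 3 tested probe sets of OsrbcS and 2 of 3 of ALDP were called. These were the 2 called of 11 carbon fixation genes (18.2%), a list whose median was 0.05. Of all named genes tested, 3.76% were called higher. Of 16 chlorophyll and tetrapyrrole genes 2 rose (median 0.15), and both encode GLK transcription factors of chloroplast development: OsGLK1 at 0.236, 0.487 and 0.318 against 0.0966, 0.197 and 0.159 (log2 1.03, SE 0.22), and OsGLK2 at 0.476, 0.569 and 0.670 against 0.289, 0.279 and 0.198 (log2 1.01, SE 0.19). Neither overlapped between times, and both lie at the fold threshold. OsGLK1 lost its call without 6 day replicate 2 or 4 day replicate 1, and OsGLK2 without 6 day replicate 3 or 4 day replicate 3, while 1 of 4 tested OsGLK2 probe sets was called.

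**Figure D3:**
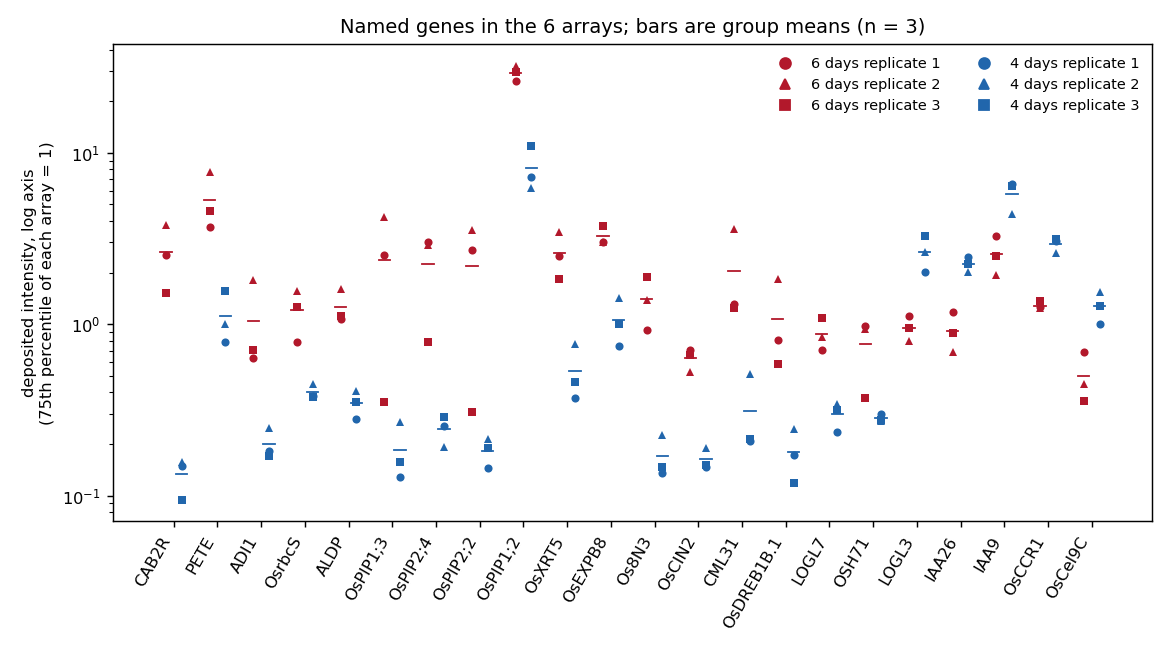
Points are the deposited intensity of named genes in each array, on a log axis, with 6 day arrays (red) left of 4 day arrays (blue), a marker shape for each replicate and a bar at the group mean (n = 3). For CAB2R the 6 day arrays sit at 1.51 to 3.80 and the 4 day arrays at 0.0945 to 0.157, and for OsPIP1;3 the 6 day replicate 3 array sits at 0.352, close to the 4 day arrays.

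Among markers of the cell types that callus could hold, 1 list had most of its members called. The summed level of 4 leaf mesophyll markers (CAB2R, PETE, OsrbcS and the Rubisco activase gene OsrcaA1) was 7.34, 13.7 and 7.70 at 6 days, against 1.45, 1.92 and 2.22 at 4 days, and 3 of the 4 were called higher. OsrcaA1 had a log2 change of 0.86 and was not called. Such sums weigh bright probe sets most, and PETE was the largest part of each of these. CAB2R, PETE and OsrbcS are the genes described above, so this list is no separate result. All 4 remained far under young leaf, where CAB2R stood at 134 ± 22.8 and PETE at 145 ± 10.8 (SD, n = 4). The sum of 5 shoot meristem markers was 3.003, 2.39 and 1.62 at 6 days and 1.79, 1.596 and 1.62 at 4 days, and 1 was called higher. Of 4 root markers 0 were called, with sums of 8.73, 6.71 and 10.7 at 6 days and 10.6, 12.6 and 12.1 at 4 days and a median change of -0.76. Of these 4, 2 were called higher in root than in young leaf. Neither the 5 lateral organ, the 6 embryo nor the 7 endosperm or aleurone markers held a called gene, and 1 of 7 vascular markers, OsCesA7, did.

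Of 24 aquaporins tested, 5 were called higher, and 2 without 6 day replicate 2. OsPIP1;2, a plasma membrane aquaporin, stood at 26.3, 32.2 and 29.6 at 6 days and at 7.26, 6.27 and 10.9 at 4 days (log2 2.02, SE 0.25, adjusted p = 5.4e-05). Its 6 day arrays were close to each other and well above the 4 day arrays. OsPIP2;4 stood at 3.03, 2.88 and 0.787 at 6 days and at 0.254, 0.193 and 0.285 at 4 days (log2 2.86, SE 0.41, adjusted p = 2.5e-04). OsPIP1;3 stood at 2.53, 4.19 and 0.352 at 6 days and at 0.129, 0.267 and 0.156 at 4 days (log2 2.97, SE 0.70, adjusted p = 0.0209). In OsPIP2;4 and OsPIP1;3 the 6 day replicate 3 array was the lowest of its time, and for OsPIP1;3 it barely cleared the 4 day arrays. OsPIP2;2 shared that shape, at 2.72, 3.55 and 0.305 against 0.145, 0.213 and 0.188 (log2 2.85, SE 0.57). OsTIP1;1, a vacuolar membrane channel, was at 50.6, 52.99 and 32.8 against 11.3, 10.4 and 15.8 (log2 1.97, SE 0.40).

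These were the 5 called, against 3.76% of named genes called higher. Of the 24, 20 had a change above 0, and their median was 0.58, against -0.02 over all genes tested. Over all probe sets tested, not taken as 1 per gene, 41.8% lay above 0. Without 6 day replicate 2, OsPIP1;3, OsPIP2;2 and OsTIP1;1 were not called, the first of these being lost also without 6 day replicate 1 or 4 day replicate 1 or 3. The OsPIP2;2 probe set ends in _s_at and can detect related transcripts, and 1 of its 2 probe sets was called.

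Of 26 expansin and xyloglucan genes 3 were called higher, against 3.76% of named genes. OsXRT5, also named OsXTH8, a xyloglucan endotransglucosylase, stood at 2.49, 3.46 and 1.83 at 6 days and at 0.373, 0.764 and 0.460 at 4 days (log2 2.22, SE 0.36, adjusted p = 8.5e-04). The beta-expansin OsEXPB8 stood at 3.01, 3.004 and 3.75 at 6 days and at 0.743, 1.42 and 0.998 at 4 days (log2 1.68, SE 0.23, adjusted p = 1.7e-04). The arrays of the 2 times did not overlap in either gene. With OsEXP6 (log2 1.15) they were the 3 called, and the median of the list was 0.52. OsEXP6 lost its call without 6 day replicate 2 or 4 day replicate 1.

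Lists of wall polymer genes held few calls, at shares near the 3.76% of named genes called higher. Of 45 cellulose and glucanase genes 3 rose and 1 fell, with a median of 0.14: OsGLU2, a glucanase (log2 1.11), OsCesA7, a secondary wall cellulose synthase (1.04), and the cellulose synthase-like OsCslA9 (1.002) rose, and the endoglucanase gene OsCel9C fell. Of 35 secondary wall and lignin genes 2 rose and 1 fell, with a median of 0.27. The rises were OsHCT2 and again OsCesA7, which belongs to both lists and is also the called vascular marker. OsHCT2, a hydroxycinnamoyl transferase of the lignin pathway, stood at 1.89, 2.55 and 0.889 at 6 days and at 0.451, 0.768 and 0.495 at 4 days (log2 1.49). OsCCR1, a cinnamoyl-CoA reductase of the same pathway, stood at 1.25, 1.24 and 1.36 at 6 days and at 3.05, 2.62 and 3.14 at 4 days (log2 -1.14, SE 0.22, adjusted p = 0.00403). Replicates of OsCCR1 were close at both times and did not overlap, and its call held in all 16 alternative settings. Limma's treat, a test against a 1.2-fold change, was not among those 16. The rises were less stable. OsCesA7 lost its call without any one of the 6 arrays, OsCslA9 without 6 day replicate 3 or 4 day replicate 2 or 3, and OsGLU2 and OsHCT2 without 6 day replicate 1 or 2 or 4 day replicate 1 or 3. The 2 lists held 1 and 0 rises without 6 day replicate 2.

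Of 14 sugar transport genes 1 was called higher, and of 36 starch and sucrose genes 2 were, near the 3.76% of named genes. Os8N3, the sucrose exporter also named SWEET11, stood at 0.930, 1.38 and 1.88 at 6 days and at 0.136, 0.224 and 0.147 at 4 days (log2 2.75, SE 0.35, adjusted p = 6.6e-05). Here 6 day replicate 3, not replicate 2, was the highest, and the times did not overlap. It was the 1 call among 14 sugar transport genes (median 0.21). OsCIN2, a cell wall invertase that splits exported sucrose, stood at 0.704, 0.529 and 0.659 at 6 days and at 0.146, 0.190 and 0.151 at 4 days (log2 1.73, SE 0.24, adjusted p = 1.7e-04), with 6 day replicate 2 the lowest of its time. OsTPP7, a trehalose-6-phosphate phosphatase, was the other of 2 called among 36 starch and sucrose genes (median 0.09), at 0.667, 1.98 and 0.727 against 0.252, 0.299 and 0.263 (log2 1.71). The OsTPP7 call rested on 6 day replicate 2 and was lost without it, as it was without any one of the 4 day arrays. The probe sets of Os8N3 and OsTPP7 end in _s_at.

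Hormone genes gave few calls in either direction, where 3.76% of all named genes were called higher and 0.214% lower. Cytokinin signalling held 0 called of 17 (median 0.04), and its member of smallest adjusted p, the type-A response regulator OsRR9, stood at 0.817, 0.997 and 0.554 at 6 days and at 0.412, 0.406 and 0.429 at 4 days (log2 0.79, adjusted p = 0.0735). Those arrays do not overlap, and OsRR9 passed the thresholds without 6 day replicate 3. Cytokinin turnover held 1 rise and 1 fall of 12, and both belong to the LOG-like family, whose enzymes release active cytokinin. LOGL7 stood at 0.702, 0.846 and 1.08 at 6 days and at 0.235, 0.344 and 0.314 at 4 days (log2 1.39, SE 0.19, adjusted p = 1.7e-04). LOGL3 stood at 1.11, 0.792 and 0.944 at 6 days and at 2.02, 2.63 and 3.27 at 4 days (log2 -1.40, SE 0.31, adjusted p = 0.0145), the largest fall among named genes. LOGL7 kept its call in all of the same 16 alternatives, whereas LOGL3 lost it without 6 day replicate 2 or 4 day replicate 2 or 3.

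Aux/IAA proteins repress auxin response genes until auxin triggers their breakdown. Of 25 tested 2 fell and 0 rose, against 0.214% of the named genes called lower, and the list median was -0.20. IAA26 stood at 1.17, 0.692 and 0.889 at 6 days and at 2.48, 2.01 and 2.24 at 4 days (log2 -1.27, SE 0.30, adjusted p = 0.0206). IAA9 stood at 3.25, 1.94 and 2.51 at 6 days and at 6.55, 4.39 and 6.38 at 4 days (log2 -1.13, SE 0.27, adjusted p = 0.0219). Neither gene's arrays overlapped, and both calls were lost without 6 day replicate 2 or 4 day replicate 1 or 3. OsYUCCA1, an auxin synthesis enzyme, was the 1 rise among 35 other auxin genes (log2 1.03, median of the list -0.15), lost without 6 day replicate 2 or 3 or 4 day replicate 1 or 3. Among 24 abscisic acid genes OsPP2C30, a protein phosphatase of that pathway, rose (log2 1.56), a call lost without any array of the 2 times except 4 day replicate 1. These single rises, 2.86% of the auxin list and 4.17% of the abscisic acid list, lay near the 3.76% of named genes called higher. Gibberellin held 0 called of 12.

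Lists of developmental regulators held 0 to 3 called genes each, where 3.76% of all named genes tested were called higher. The KNOX genes OSH71 and HOS59 were 2 called of 9 (22.2%, median 0.26). OSH71 stood at 0.978, 0.938 and 0.369 at 6 days and at 0.300, 0.273 and 0.275 at 4 days (log2 1.18, SE 0.25, adjusted p = 0.0087), and HOS59 at 1.95, 3.05 and 1.96 at 6 days and at 0.847, 0.941 and 1.40 at 4 days (log2 1.15, SE 0.22, adjusted p = 0.00448). The groups did not overlap, but 6 day replicate 3 of OSH71 lay near the 4 day arrays. Both calls were lost without 6 day replicate 2, and that of OSH71 also without 6 day replicate 1 or 4 day replicate 2. OSH1, another KNOX gene of the meristem, had a log2 change of 0.26 and was not called. Of 33 homeobox genes 3 (9.09%) rose, the HD-Zip factors OsHox16 (log2 1.64), OsHox8 (1.205) and OsHox15 (1.05), and 1 did without 6 day replicate 2. PCF8, a TCP factor (log2 1.13), and OsMADS58, a MADS factor of flower development (1.09), rose, each the 1 call of its list, of 17 and of 20 genes. These shares, 5.88% and 5%, lie near that of named genes. PCF8 lost its call without 6 day replicate 2 or 3, and OsMADS58 without 6 day replicate 2 or 4 day replicate 2. YABBY genes held 0 called of 6, with OsYAB2 at 1.35, 1.13 and 1.86 against 1.13, 0.818 and 0.791 (log2 0.62, adjusted p = 0.12), and WOX genes 0 of 7.

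Several calcium sensors and stress-linked factors rose, most with 6 day replicate 2 the highest. CML31, a calmodulin-like protein, stood at 1.31, 3.61 and 1.24 at 6 days and at 0.207, 0.511 and 0.214 at 4 days (log2 2.49, SE 0.40, adjusted p = 7.5e-04). OsDREB1B.1, a transcription factor of the cold and drought response, stood at 0.813, 1.84 and 0.586 at 6 days and at 0.174, 0.244 and 0.118 at 4 days (log2 2.25, SE 0.33, adjusted p = 2.8e-04). In both, each time's highest array was its replicate 2 and the times did not overlap. Of 24 calmodulin and calmodulin-like genes 6 rose (25%, against 3.76% of named genes called higher) and 0 fell (median 0.36). Without 6 day replicate 2, 4 rose. The list was added after its members' values had been seen. CML27 (log2 1.98), CML15 (1.78), CML14 (1.34), CML10 (1.18) and CML16 (1.15) were the other 5. OsDREB1B.1 and its relative CBF3 (log2 1.29) were the 2 called of 21 ethylene and ERF-type genes (9.52%). OsMyb4 (1.34) was the 1 called of 10 MYB genes (10%). CBF3 and OsMyb4 were not called without 6 day replicate 2.

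Among zinc finger genes, OsC3H33 of the CCCH family stood at 7.06, 12.4 and 5.75 at 6 days and at 1.78, 3.14 and 2.41 at 4 days (log2 1.84, SE 0.26, adjusted p = 2.0e-04), and both its tested probe sets were called. OsSAP17, a stress-associated protein, stood at 1.43, 3.02 and 1.45 at 6 days and at 0.452, 0.699 and 0.419 at 4 days (log2 1.76, SE 0.27, adjusted p = 5.0e-04). Replicate 2 was again the highest array of each time in both genes. With OsLSD1 (1.33) and OsiSAP1 (1.1997) they made 4 called of 73 zinc finger genes, a list with a median of -0.08, and 2 were called without 6 day replicate 2. Those shares lie near the 3.76% of named genes called higher, and the list was added after its members' values had been seen.

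Of 7 metallothionein genes 1 was called higher (14.3%, against 3.76% of named genes). OsMT-I-2b, a metallothionein, stood at 2.74, 1.96 and 1.32 at 6 days and at 0.104, 0.177 and 0.162 at 4 days (log2 3.48, SE 0.38, adjusted p = 1.6e-05), with 3 of 3 tested probe sets called. No array of one time came near the other time. The glutaredoxin GRXC15 stood at 0.473, 0.438 and 0.7499 at 6 days and at 0.0932, 0.102 and 0.0701 at 4 days (log2 2.27, SE 0.35, adjusted p = 5.3e-04). With GRXS5 (1.89), GRXC7 (1.56) and GRXC10 (1.46) it made 4 called of 17 glutaredoxins (23.5%, median 0.29), of which 2 held without 6 day replicate 2. CAT-A, a catalase that breaks down hydrogen peroxide, stood at 2.97, 3.27 and 1.09 at 6 days and at 0.388, 0.541 and 0.463 at 4 days (log2 2.18, SE 0.56, adjusted p = 0.0356). Its groups did not overlap, but 1 of its 3 probe sets was called, that set ends in _x_at, and the call was lost without any array of the 2 times except 6 day replicate 3. Of 24 beta-glucosidases 3 (12.5%) rose (Os4bglu12, Os8bglu27 and Os3bglu6), and 0 without 6 day replicate 2. Single calls came from 6 glutathione S-transferases (GSTZ5, log2 1.24) and 2 class III peroxidases (PRX74, 1.46). Of 36 jasmonate genes 2 rose (OsOPR5, 2.03, and LOX1.1, 1.197), 5.56% and near the share of named genes. Those 4 were also lost without 6 day replicate 2, and the 6 and 4 day arrays of OsOPR5, Os4bglu12 and Os8bglu27 overlapped. LOX1.1 lost its call without any array of the 2 times. OsOPR5, PRX74, Os4bglu12 and Os8bglu27 lost theirs without any except 6 day replicate 3, and GSTZ5 also without 4 day replicate 1.

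A lipid transfer protein and 2 proteases were also among the 15 largest rises of named genes whose arrays did not overlap between times. LTP110-A, a lipid transfer protein, stood at 8.46, 20.3 and 9.50 at 6 days and at 1.69, 1.81 and 4.54 at 4 days (log2 2.40, SE 0.37, adjusted p = 4.4e-04). AP25, an aspartic protease, stood at 3.18, 6.45 and 4.40 at 6 days and at 0.686, 0.748 and 1.33 at 4 days (log2 2.37, SE 0.30, adjusted p = 5.8e-05). OsSAG12, a cysteine protease, stood at 8.45, 22.1 and 31.7 at 6 days and at 3.41, 3.93 and 5.77 at 4 days (log2 2.21, SE 0.32, adjusted p = 2.5e-04). In all 3 the arrays of the 2 times did not overlap, though 6 day replicate 1 of OsSAG12 lay nearer to the 4 day arrays than to 6 day replicate 3.

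Cell division genes had changes mostly below 0 and no call. Of 31 DNA replication genes 0 were called and 30 had a change below 0, with a median of -0.29 and a range of -0.49 to 0.09. Of 15 mitosis genes 0 were called and all 15 lay below 0, with a median of -0.30. Over all probe sets tested, not taken as 1 per gene, 58.2% lay below 0, and the median over all genes tested was -0.02. CycB1-1, a mitotic cyclin, stood at 0.362, 0.451 and 0.334 at 6 days and at 0.548, 0.709 and 0.697 at 4 days (log2 -0.73, SE 0.22, adjusted p = 0.0807), and the replication factor OsRFC1 at 3.59, 3.31 and 3.73 against 4.72, 4.46 and 4.74 (log2 -0.33, adjusted p = 0.138). The 2 times did not overlap in either gene, but neither passed the test. OsCel9C, at 0.688, 0.445 and 0.358 against 1.01, 1.54 and 1.27 (log2 -1.31, SE 0.27, adjusted p = 0.00659), made the fifth of the 5 named falls, beside LOGL3, IAA26, OsCCR1 and IAA9.

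No member was called in several other lists: 24 cytosolic ribosome genes, 45 heat shock genes, 10 late embryogenesis and dehydrin genes, 6 seed storage genes, 6 low-oxygen genes, 87 mineral transporters, 15 pathogenesis-related genes, 14 phytoalexin genes, 29 cytochromes P450, 7 clock genes and 6 light signalling genes. Without 4 day replicate 2, the array with excess poly(A) controls, 2 mineral transporters and 1 pathogenesis-related gene were called higher. The median of the ribosome list was -0.06 and that of the mineral transporters 0.11. Lists without a call could still hold wide differences between arrays, as for Cht1, a chitinase, at 0.985, 0.899 and 0.105 against 0.149, 0.161 and 0.131, where 6 day replicate 3 lay below every 4 day array and the other two 6 day arrays far above. The phosphate-responsive OsSPX3 stood at 0.738, 3.26 and 1.39 at 6 days and at 0.438, 0.582 and 0.406 at 4 days (log2 1.57, adjusted p = 0.083), and the germin-like OsGER4 had a log2 change of 1.88 (adjusted p = 0.0799). Neither was called.

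**Figure D4:**
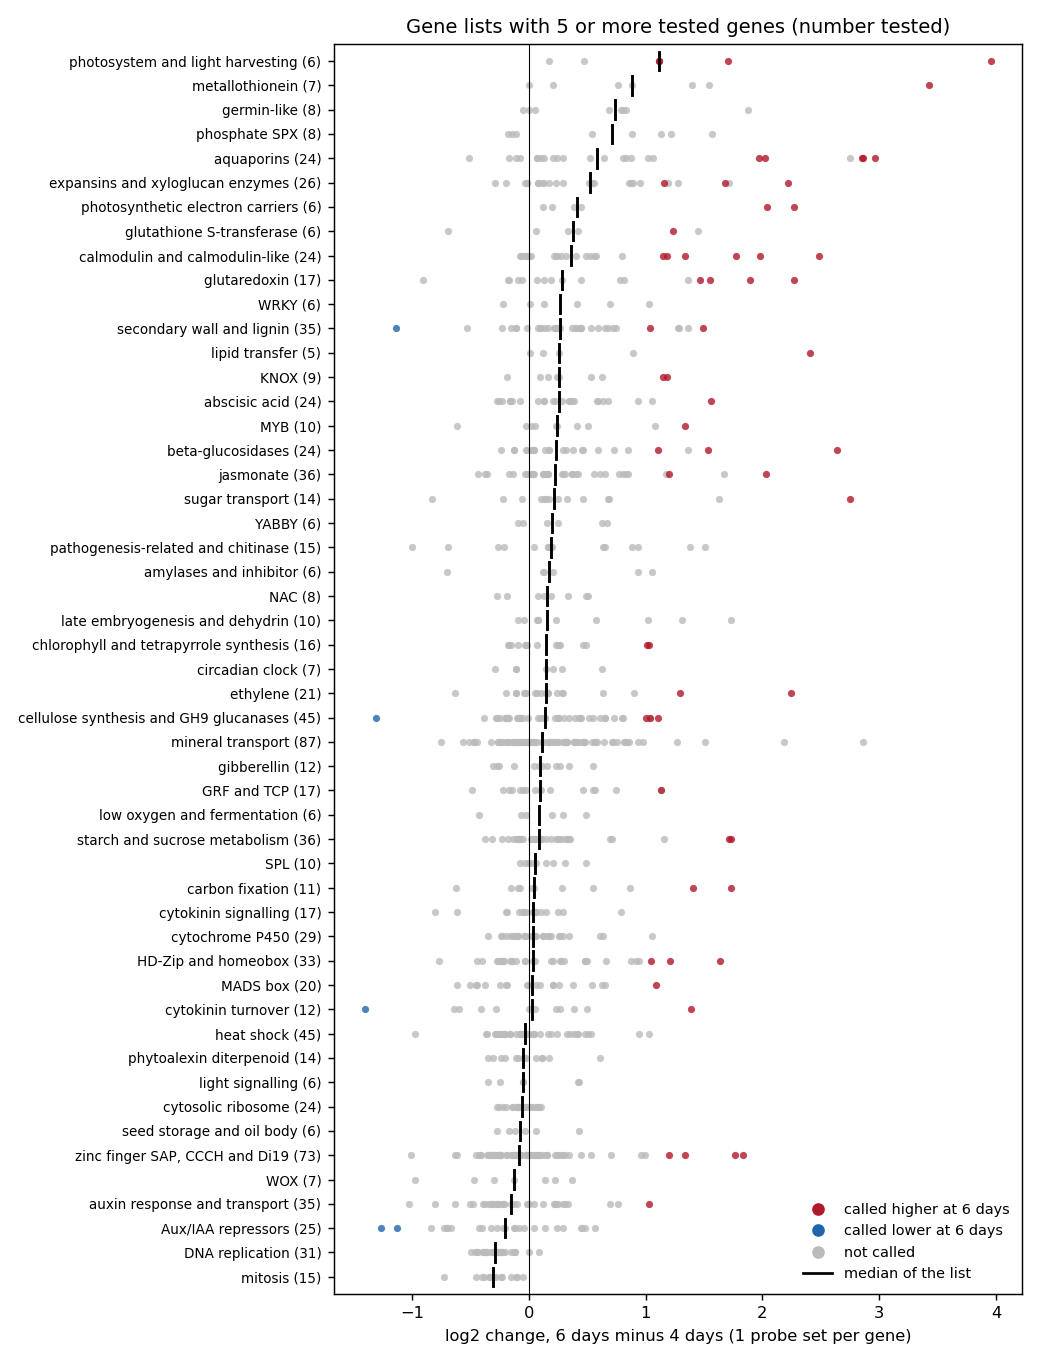
Each point is 1 gene, placed by its log2 change, 6 days minus 4 days, in the row of its list, with the number of tested genes in brackets and a black bar at the list median. Red points were called higher and blue points lower. The photosystem list has the highest median, 1.11, and the mitosis list the lowest, -0.30.

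Whether the interval from 4 to 6 days differed from its neighbours was tested as the change from 4 to 6 days minus the mean of the changes from 2 to 4 and from 6 to 8 days. In this step test 49 probe sets were called higher (0.132%) and 1 lower (0.00269%), a probe set without a gene name here. Of these 50, 49 were also called between 6 and 4 days. The contrast reuses the same 6 and 4 day arrays with added weight. It is therefore no separate check of the 6 day rise, and a single high 6 day array raises both. CAB2R had a step of 4.29 (SE 0.37, adjusted p = 1.9e-06), with levels of 0.157 ± 0.0192, 0.133 ± 0.0338, 2.62 ± 1.15 and 1.78 ± 0.469 at 2, 4, 6 and 8 days (SD, n = 3 each). Its mean differed little between 2 and 4 days and was not higher at 8 days than at 6 days. OsMT-I-2b also had a called step (3.23 on its probe set ending in _x_at), but its mean was 1.97 ± 0.490 at 6 days and 3.32 ± 1.35 at 8 days. The stress-linked genes had their highest mean of the 4 times at 6 days: CML31 stood at 0.419 ± 0.144, 0.311 ± 0.173, 2.06 ± 1.35 and 0.795 ± 0.156 (step 3.29, adjusted p = 0.0329), OsDREB1B.1 at 0.218 ± 0.0469, 0.178 ± 0.0630, 1.08 ± 0.666 and 0.392 ± 0.112 (2.95, adjusted p = 0.0151), and OsSAP17 and OsC3H33 had the same shape (2.23 and 2.42). In growing callus, before the regeneration medium, CML31 stood at 1.13 ± 0.517 and OsSAP17 at 1.53 ± 0.388, above their 4 day means. Os8N3 stood at 3.24 ± 1.15 and OsSAG12 at 27.6 ± 5.35 there, so that these genes, too, were low at 4 days relative to callus before and after (at 8 days their means were 2.08 and 44.6). These differences from growing callus were not tested.

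The step calls rest on few arrays. The 6 day replicate 2 array was the highest of its time in 44 of the 49, and without it 15 probe sets were called. Without 6 day replicate 3 the count was 276, without 6 day replicate 1 it was 85, and without 4 day replicate 1 or 3 it was 17 or 26. PETE (step 1.95, adjusted p = 0.0533), OsPIP2;4 (3.14, adjusted p = 0.0533) and OsPIP1;2 (1.46, adjusted p = 0.24) did not pass it.

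**Figure D5:**
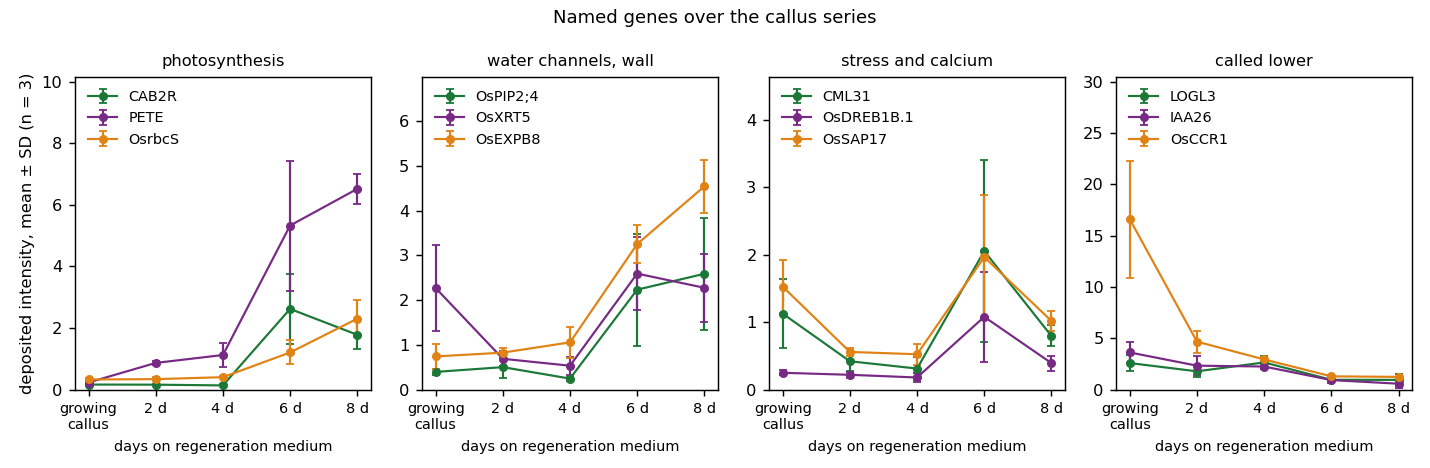
Points are mean deposited intensities with SD bars (n = 3 arrays) for growing callus and for 2, 4, 6 and 8 days on regeneration medium, in 4 panels of 3 genes each with their own axes. PETE and OsrbcS have higher means at 8 days than at 6 days, CML31, OsDREB1B.1 and OsSAP17 have their highest mean of the 4 times at 6 days with wide bars, and the mean of OsCCR1 declines from growing callus onward.

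The 8 and 2 day arrays gave a wider interval that spans the same days. Their means do not enter the 6 minus 4 day difference. Both comparisons came from 1 fit, however, with shared normalization, filter and spread, so their calls are not fully independent. Between 8 and 2 days 1448 probe sets (3.89%) were called higher at 8 days and 364 (0.978%) lower. Of the 578 probe sets higher at 6 days, 431 were higher at 8 than at 2 days (74.6% of the 578 and 29.8% of the 1448) and 0 were lower, and the median change of the 578 there was 1.61. Of the 15 lower at 6 days, 11 were lower at 8 than at 2 days, and 0 higher. The share was 84.9% of 258 without 6 day replicate 2. Those not called between 8 and 2 days included CML31 (log2 0.88), OsDREB1B.1 (0.84), OsC3H33 (0.67), OsSAP17 (0.82), CBF3 (0.46) and OsMyb4 (-0.15), while OsMT-I-2b (4.60 on the probe set first described), PETE (2.91), OsPIP1;2 (3.14) and ALDP (3.39) were higher. LOGL3 did not pass (-0.99), and IAA26 (-1.98), IAA9 (-1.27), OsCCR1 (-1.86) and OsCel9C (-1.87) were lower.

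The organ arrays showed where the same probe sets stand in plant organs. Young leaf against root gave 5764 probe sets higher in leaf (15.5%) and 6167 higher in root (16.6%), so that 48.3% of the calls were higher in leaf, or 58.4% with median centring in place of quantile normalization. Of the 578 that rose, 123 (21.3%, and 2.13% of the 5764) were higher in leaf and 250 (43.3%, and 4.05% of the 6167) were higher in root. With median centring these were 141 and 237 of 585, and without 6 day replicate 2 they were 58 and 108 of 258. The photosynthesis genes, GRXC15, GSTZ5 and CAT-A were in the leaf-high part, and OsPIP1;3, OsPIP2;4, OsPIP2;2, OsPIP1;2, OsXRT5, OsEXPB8, OsCIN2 and OSH71 in the root-high part. Among 2735 probe sets at least 4-fold higher in root than leaf, 182 (6.65%, against 1.55% of all probe sets tested) rose at 6 days and 3 fell, with a median change of 0.17. Among 2814 at least 4-fold higher in leaf, 92 (3.27%) rose and 1 fell, with a median of -0.00. The organ arrays alone could carry a probe set of either kind past the filter on dim values, so these shares are a description. Of the 4 root markers 0 were called in either direction at 6 days (median change -0.76, range -0.97 to 0.13), and 3 were called lower at 8 than at 2 days. Only 2 of these 4 were themselves called higher in root than in young leaf.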

How the data were processed

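The authors hybridised RNA of 25 samples to Affymetrix Rice Genome Arrays. The deposited values are linear signal intensities scaled so that the 75th percentile of each array is 1. GCOS 1.3 is named per the submitters' processing notes, and the probe summary, background and detection steps are not given in the sources used here. From these intensities 187 control probe sets were removed, a pseudocount of 0.0274 was added before log2, and arrays were quantile normalized. Of 57194 probe sets, 37212 exceeded the median of the array in 3 arrays or more and were tested with limma 3.58.1 in R 4.3.3, with 1 mean for each of 8 groups, 17 residual and 5.40 prior degrees of freedom, on p-values adjusted by Benjamini-Hochberg. The thresholds were 0.05 and 2-fold. The step test was a contrast of the same fit, and the method was tested on simulated data.

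Genes come from the platform annotation, with names from RefSeq. Of 57381 probe sets, 22436 had 1 gene, 95 several and 34850 none. The 52 lists and 7 marker lists use the probe set of highest mean for each gene, and 76 of their members had no tested probe set. Named genes are the 15 largest rises and 5 largest falls with no overlap between times, the called or lowest-p genes of the lists and of the step test. Members and lists were chosen with earlier results of these data known, and the calmodulin and zinc finger lists after their values were seen. Promoter sequences were not used here. The number of arrays limits the precision, and p-values measure only the spread between these arrays. Alternatives were the pseudocount, normalization, filter, arrays in the fit, a replicate block, the test, and each array left out. Named genes were followed in up to 16 of these, without treat and the adjusted p alone.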

Additional observations from a re-analysis of the deposited data

Results flagged for a closer look

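For 8 named probe sets the change from 4 to 6 days differed from the mean of the neighbouring intervals by the test of that difference in limma. That test shares its 6 and 4 day arrays with the main comparison. These log2 differences were 4.29 and 2.09 for the probe sets of CAB2R, 3.23 for OsMT-I-2b, 3.29 for CML31, 2.95 for OsDREB1B.1, 2.42 and 2.47 for those of OsC3H33, and 2.23 for OsSAP17. Poly(A) control probe sets, which no comparison uses, had medians of 236 at 4 days replicate 2, 229.3 in growing callus replicate 2 and 228.7 at 2 days replicate 2, the 3 arrays whose labels state an excess, against 0.181 to 1.49 in the other 22 arrays. What the excess did to other probe sets was not tested beyond leaving these arrays out.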

How the results depend on the processing

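The 593 calls between 6 and 4 days became 390 with the arrays of those times alone, 918 by adjusted p alone and 346 by limma's treat, and lay between 263 and 944 with 1 array left out. The 50 step calls became 7 with callus arrays, 7 with the compared arrays, 25 without the 3 poly(A) arrays and 29 by treat, and lay between 15 and 276 with 1 array left out. By adjusted p alone there were 5311 calls between 8 and 2 days and 22513 between leaf and root. Of 63 called results for named genes, 26 kept their call in all 16 alternatives, 37 lost it in at least 1, and 0 changed sign. Those 16 leave out treat and the adjusted p alone, under which named genes were not checked. Where the 6 and 4 day arrays do not overlap, leaving out 1 array could hardly change the sign. Deviations of same-numbered 6 and 4 day arrays correlated at 0.0912, 0.117 and -0.0655, and those of differently numbered arrays at -0.235 to 0.151. No pairing by number was seen, but groups of 3 arrays cannot exclude it. The fit with the replicate number as a block gave 581 calls. Poly(A) control medians grouped the arrays across replicate numbers, which neither that block nor a pairing by number can take up. The cause of the differences between settings was not tested. Median centring or the deposited scale moved the ribosome list's median to -0.22 under each, and that of starch and sucrose to 0.0297 and 0.0267. Without the poly(A) arrays the starch and sucrose median was 0.12 and the NAC median 0.36. With 1 array left out, medians ranged from 0.0217 to 0.16 for chlorophyll, -0.0036 to 0.19 for clock, -0.0741 to 0.0701 for heat shock, 0.16 to 0.66 for lipid transfer, 0.12 to 0.48 for lateral organ markers, 0.0929 to 0.36 for NAC, 0.29 to 0.99 for SPX, and 0.0411 to 0.12 for starch and sucrose. The median over all probe sets was 0.10 (median centring) and -0.19 (deposited scale) in place of -0.02 for leaf against root, and -0.18 (deposited scale) in place of -0.06 for 8 against 2 days. Counts for lists without 6 day or 4 day replicate 2, and organ and 8 day shares without 6 day replicate 2, were chosen after seeing the data. OsCel9C lost its call without the poly(A) arrays.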

Other observations

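The following called genes were picked after their values had been seen, each stands for itself, and no list of related genes was counted. GDCSH, the H protein of glycine decarboxylase, stood at 0.607, 0.620 and 0.649 at 6 days and at 0.208, 0.228 and 0.190 at 4 days (log2 1.40, SE 0.18, adjusted p = 5.8e-05 in limma). The replicates were close and the times did not overlap. The glycolate oxidase gene OsGLO4 stood at 2.35, 2.87 and 1.77 at 6 days and at 0.810, 0.930 and 1.19 at 4 days (log2 1.26), and OsGLO3 had a log2 change of 1.36. OsGLN1;2, a cytosolic glutamine synthetase, which assimilates ammonium, had a log2 change of 1.51. AS2, a LOB-domain gene also named LBD6, stood at 0.664, 0.709 and 1.09 at 6 days and at 0.325, 0.242 and 0.239 at 4 days (log2 1.43), without overlap.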
